A study of Mus musculus with 9 samples.

Results

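Transcripts of 10 genes were followed: the cyclins Ccnd1, Ccnd2, Ccnd3, Ccne1, Ccne2, Ccna2, Ccnb1 and Ccnb2 and the cyclin-dependent kinases Cdk1 and Cdk2. They were chosen by symbol, and all 10 were found among the 24493 gene rows of the table. RNA came from 6620c1, a cell line from a mouse pancreatic tumor, at day 0, day 2 and day 14, with 3 libraries each and no further treatment. The medium named for all 9 libraries, day 0 included, is DMEM in which glucose was 2.5 mM, amino acids were at 20% of the standard level and fetal calf serum was at 0.5%, a condition of low nutrients and oxygen. The column names of the table carry the prefix WT for all 9 libraries, which is not spelled out. The labels give neither the oxygen level, the medium before day 0, the driver mutations of the tumor nor whether the line is 1 clone, and no library comes from cells kept as long in full medium, so the effects of the medium and of elapsed time cannot be told apart. Nothing in the labels says that the 3 libraries of a day came from separate cultures, so p-values measure the spread between these libraries, which may be technical.

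Cyclins are the regulatory subunits that switch on cyclin-dependent kinases, and their levels set the order of the cell cycle. D-type cyclins respond to growth signals and pair with CDK4 and CDK6 in G1, E-type cyclins pair with CDK2 at entry into S phase, cyclin A2 pairs with CDK2 and CDK1 through S and G2, and B-type cyclins drive mitosis with CDK1. Transcription of the A and B cyclins and of Cdk1 is tied to the cycle: it is shut off in resting cells by the DREAM complex and switched on in cycling cells, with NF-Y at CCAAT boxes, DREAM, B-MYB and FOXM1 at the cell cycle genes homology region (CHR), and E2F at its own sites among the factors involved. Loss of G1 control is a common feature of pancreatic cancer.

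Promoter windows of Cdk1, Ccnb1 and Ccnb2 are shown because these genes moved together in the data below, and those of Cdk2 and Ccne1 for comparison. Ccne1 does not contrast in depth of fall, as its day 2 mean was 5.55% of day 0, against 7.41% for Cdk1. Whether the letters go with the size of a change was not tested. In the table of RefSeq promoter sequences used here (GRCm38.p6), 6 of the 10 genes were matched, with 7 start sites. Windows of Ccnd1, Ccnd2, Ccne2 and Ccna2 were not analysed here. Each line gives 150 bases before and 20 bases from the annotated start, 5′ to 3′ on the strand of the gene, and capitals mark CCAAT boxes (CCAAT), CHR letters (TTTGAA or TTCGAA) and E2F letters (TTCCCGC, TTTCGCGC or TTTGGCGC) on either strand.
Cdk1, chr10:69352893-69353062, minus strand: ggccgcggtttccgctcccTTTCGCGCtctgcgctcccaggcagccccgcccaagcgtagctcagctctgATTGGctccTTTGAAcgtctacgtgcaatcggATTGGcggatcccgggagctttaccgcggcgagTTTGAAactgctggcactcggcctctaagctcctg
Ccnb1, chr13:100786467-100786636, minus strand: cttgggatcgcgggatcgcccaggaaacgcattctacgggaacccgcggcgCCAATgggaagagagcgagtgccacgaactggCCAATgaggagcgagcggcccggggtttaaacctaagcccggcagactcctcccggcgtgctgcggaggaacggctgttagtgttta
Ccnb2, chr9:70421535-70421704, minus strand: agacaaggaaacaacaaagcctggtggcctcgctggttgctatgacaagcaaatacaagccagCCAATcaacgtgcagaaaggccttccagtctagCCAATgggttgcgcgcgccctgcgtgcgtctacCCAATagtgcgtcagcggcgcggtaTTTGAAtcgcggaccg
Cdk2, chr10:128705032-128705201, minus strand: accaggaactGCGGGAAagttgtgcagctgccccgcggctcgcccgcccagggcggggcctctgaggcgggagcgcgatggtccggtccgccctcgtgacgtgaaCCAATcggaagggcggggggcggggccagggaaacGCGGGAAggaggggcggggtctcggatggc
Ccne1, chr7:38107471-38107640, minus strand: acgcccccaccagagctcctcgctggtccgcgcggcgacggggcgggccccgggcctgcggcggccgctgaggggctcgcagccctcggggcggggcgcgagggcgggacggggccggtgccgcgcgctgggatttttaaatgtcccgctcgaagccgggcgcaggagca
The Cdk1 window held 2 CCAAT boxes, both on the opposite strand, 2 CHR matches and 1 E2F match, none of them overlapping. Ccnb2 held 3 CCAAT boxes and 1 CHR match just past the start, and Ccnb1 2 CCAAT boxes and none of the CHR letters. The Cdk2 window held 1 CCAAT box and 2 E2F matches, and that of Ccne1 held none of these letters. Of the start sites of Ccnd3, 1 window had 1 CCAAT box and the other had no match. Among all 32851 promoter windows of this length, 26.3% held CCAAT, 10.7% the CHR letters and 3.38% the E2F letters, and 6.66% held CCAAT at 2 or more positions. A match is a string of letters, and binding was not measured.

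Expression is given as TPM, transcript abundance per length that sums to 1000000 in every library, so levels may be compared between genes. The number of reads is not recoverable from TPM, so the depth behind each value is unknown. A row named Mir6236 took between 8.27% and 22.5% of the total in a library, with the highest share in day 2 replicate 3. With small RNA rows such as this removed, each of the 30 tests of the 10 genes kept its direction and its call. The epithelial markers Epcam, Krt7, Krt8, Krt18, Krt19 and Cdh1 each reached at least 1 TPM in some library, but Epcam had a mean of 0.69 TPM at day 2. Their summed level, mostly of keratins, was 10785 to 11441 TPM at day 0, 5456 to 7572 at day 2 and 6786 to 8543 at day 14. At day 14 against day 0, Epcam and Cdh1 were called higher, Krt7, Krt8 and Krt18 lower, and Krt19 did not pass. Summed levels of markers of other cell types were at most 3.12 TPM for 6 fibroblast genes, 6.45 for 6 leukocyte genes, 1.13 for 4 endothelial genes and 7.21 for 6 acinar and islet genes, of which Ins1 and Gcg were at 0 in all 9 libraries. The leukocyte, endothelial and acinar and islet sums were highest at day 14, and their part in the day 14 results was not tested.

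Day 2 was compared with day 0 to see how far each cyclin and kinase had changed after the first days. Of the 10 genes 9 were lower at day 2 and none was higher (limma, adjusted p under 0.05), where 31.9% of the 12693 genes tested were lower and 27.1% higher, or 59.0% in either direction. Without the 20 most abundant rows 4563 of all genes were higher and 3457 lower, against 3438 and 4046. The S and G2/M genes Ccna2, Ccnb1, Ccnb2 and Cdk1 had the larger fall by the median, at a log2 fold change of -4.79. The 6 genes of G1 and of entry into S phase had a median of -1.58, and all tested genes had a median of -0.02. Fold changes are of TPM + 1 on a log2 scale, so that those of genes near 1 TPM come out too small. Ccne1, 1 of the 6, kept 5.55% of its day 0 mean at day 2, and Cdk1 kept 7.41%. With a pseudocount of 0.1 their log2 fold changes were -4.11 and -3.75, so the depth of the fall did not part the 2 groups gene by gene. In bulk RNA, fewer cells in the cycle and less of a transcript per cell cannot be told apart.

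Ccna2, the cyclin of S phase and G2, stood at 106, 129 and 144 TPM in the day 0 libraries and at 1.61, 3.09 and 2.83 TPM at day 2. The day 2 mean was 1.98% of the day 0 mean, and the log2 fold change was -5.199, with an SE of 0.19 (limma, adjusted p = 2.64e-07), which ranked 6 from the bottom among all genes tested. Ccnb2, a B-type cyclin of mitosis, had 75.4, 84.4 and 91.02 TPM at day 0 and 1.02, 1.94 and 2.73 TPM at day 2. Every day 2 library of both genes lay far below every day 0 library. Ccnb1, the main mitotic cyclin, went from 115, 122 and 138 TPM to 2.52, 4.65 and 4.97 TPM, or 3.23% of the day 0 mean. The log2 fold changes of Ccnb2 and Ccnb1 were -4.91 (SE 0.24) and -4.68 (SE 0.23), with limma adjusted p of 6.11e-07 and 7.19e-07.

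Cdk1, the kinase of mitosis, had a smaller log2 fold change than its cyclins, a difference that was not itself tested. Its values were 83.2, 96.3 and 106 TPM at day 0 and 5.39, 8.59 and 7.17 TPM at day 2, which is 7.41% of the day 0 mean (log2 fold change -3.59, SE 0.18, limma, adjusted p = 7.36e-07). Cdk2, the kinase of the G1/S transition and S phase, had 31.7, 32.04 and 34.8 TPM at day 0 and 16.5, 15.7 and 13.8 TPM at day 2. The libraries of the days did not overlap, and the day 2 mean was 46.7% of the day 0 mean (log2 fold change -1.05, SE 0.12, limma, adjusted p = 7.51e-05). Cdk1 was the more abundant kinase transcript in every day 0 library, and Cdk2 in every day 2 library.

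The E-type cyclins, which bring CDK2 to activity at the start of S phase, also fell. Ccne1 had 24.5, 32.6 and 36.8 TPM at day 0 and 1.46, 2.31 and 1.44 TPM at day 2, 5.55% of the day 0 mean (log2 fold change -3.56, SE 0.32, limma, adjusted p = 1.88e-05). It lay nearer to Cdk1 than to the other G1 genes in the depth of its fall. Ccne2 had 8.09, 13.2 and 16.9 TPM at day 0 and 1.10, 3.14 and 2.27 TPM at day 2, 17.05% of the day 0 mean (log2 fold change -2.12, SE 0.33, limma, adjusted p = 0.000527). The days did not overlap for either gene, although the values of Ccne2 spread widely within a day.

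Among the D-type cyclins, which couple growth signals to CDK4 and CDK6, Ccnd1 and Ccnd3 fell at day 2 and Ccnd2 did not pass. Ccnd1, with the highest mean of the 10 genes at every day, had 489, 565 and 600.2 TPM at day 0 and 79.6, 183 and 137 TPM at day 2. The day 2 mean was 24.1% of that at day 0 (log2 fold change -2.12, SE 0.28, limma, adjusted p = 0.000183), and the days did not overlap. Ccnd3 had 76.8, 77.03 and 77.8 TPM at day 0, a spread of 0.505 (SD), and 46.4, 38.7 and 37.8 TPM at day 2 (log2 fold change -0.90, SE 0.11, limma, adjusted p = 9.41e-05). Ccnd2 had 84.4, 78.2 and 85.7 TPM at day 0 and 70.9, 119 and 93.2 TPM at day 2. Its libraries overlapped, and its log2 fold change of 0.16, with a 95% confidence interval from -0.26 to 0.58, did not pass (limma, adjusted p = 0.493). Under quantile normalization Ccnd2 was higher at day 2, at 0.49 and a limma adjusted p of 0.0455, and without day 2 replicate 2 its log2 fold change was -0.02.

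**Figure D1:**
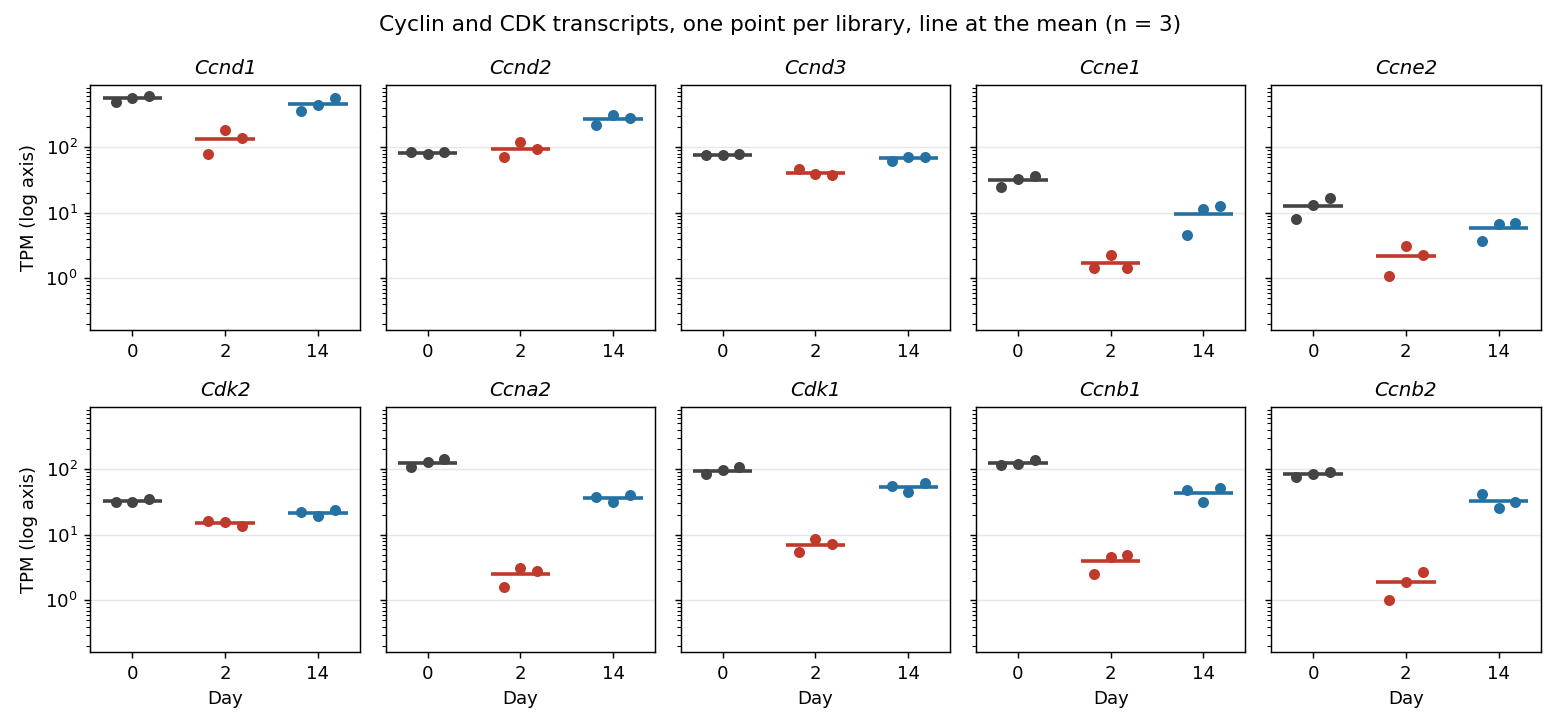
TPM of the 10 genes on a log axis at day 0, 2 and 14, with replicates 1 to 3 from left to right as points and the mean of 3 libraries as a line. Ccna2, Ccnb1, Ccnb2 and Cdk1 drop below 10 TPM in every day 2 library and stand between 25.5 and 61.6 TPM at day 14, while Ccnd2 lies at or above 221 TPM in every day 14 library.

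Day 14 was compared with day 0 to see which genes still differed after the longer culture. By then 7 of the 10 genes were lower than at day 0 and 1, Ccnd2, was higher, where 18.8% of all genes tested were lower and 36.2% higher, or 55.1% in either direction. Ccnd1 and Ccnd3 did not pass. Both comparisons use the same day 0 libraries. The median log2 fold change was -1.44 for the 4 S and G2/M genes and -0.44 for the 6 others, against 0.22 for all genes tested. That last shift was 0.025 with median-of-ratios scaling, and the calls of all genes were then 3497 higher and 3584 lower against 4601 and 2389.

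Ccna2 stood at 37.96, 31.2 and 39.9 TPM at day 14, 28.8% of the day 0 mean (log2 fold change -1.77, SE 0.19, limma, adjusted p = 0.000123). Ccnb1 stood at 48.6, 31.9 and 50.9 TPM, or 35.01% (log2 fold change -1.52, SE 0.23, limma, adjusted p = 0.000675). Ccnb2 stood at 41.3, 25.5 and 31.1 TPM, or 39.003% (log2 fold change -1.35, SE 0.24, limma, adjusted p = 0.00133). For each of these cyclins all day 14 libraries lay between the day 2 and the day 0 libraries. Cdk1 stood nearer to its starting level, at 55.5, 44.1 and 61.6 TPM or 56.4% of the day 0 mean (log2 fold change -0.82, SE 0.18, limma, adjusted p = 0.00427). Replicate 2 was the lowest day 14 library for all 4 genes.

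Cdk2 stood at 21.9, 19.3 and 24.2 TPM, 66.4% of the day 0 mean, still below every day 0 library (log2 fold change -0.57, SE 0.12, limma, adjusted p = 0.00326). Ccne1 stood at 4.66, 11.5 and 12.6 TPM, 30.6% of the day 0 mean, a share close to that of Ccna2 (log2 fold change -1.69, SE 0.32, limma, adjusted p = 0.00194). Ccne2 stood at 3.68, 6.77 and 6.94 TPM, or 45.5% (log2 fold change -1.001, SE 0.33, limma, adjusted p = 0.0287). Replicate 1 was the lowest day 14 library for both E cyclins. The call for Ccne2 was lost when replicate 2 or 3 of day 0 or replicate 1 of day 14 was left out, at limma adjusted p of 0.0785, 0.102 and 0.0931, and without the filter on low values, at 0.0535.

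Ccnd1 stood at 359, 437 and 562 TPM at day 14, so that replicate 3 lay within the day 0 range and replicates 1 and 2 below it. Its log2 fold change from day 0 was -0.30, with a 95% confidence interval from -0.93 to 0.32 (limma, adjusted p = 0.372). Ccnd3 stood at 62.1, 70.04 and 70.7 TPM, all below the day 0 libraries, at 87.6% of their mean. Its log2 fold change of -0.19 did not pass (limma, adjusted p = 0.151), but with median-of-ratios scaling it was -0.40 and passed (limma, adjusted p = 0.00785). Ccnd2 stood at 221, 309.96 and 276 TPM, 3.25 times the day 0 mean, and every day 14 library lay above every library of the other days. Its log2 fold change was 1.68 from day 0 (SE 0.19, limma, adjusted p = 0.000134).

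**Figure D2:**
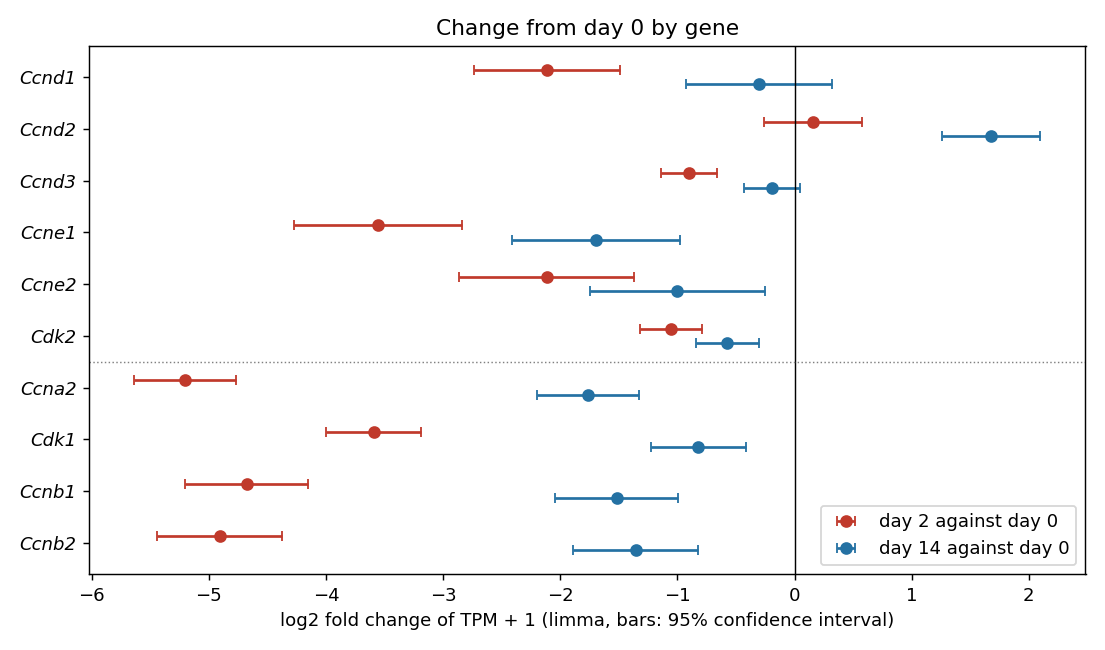
Log2 fold change of TPM + 1 from day 0 at day 2 (red) and day 14 (blue) for each gene, with bars for the 95% confidence interval of the limma fit over 9 libraries. The dotted line parts the G1 and S-entry genes, above, from the S and G2/M genes, below. The day 2 values of the latter lie between -5.199 and -3.59, and the intervals of Ccnd1 and Ccnd3 at day 14 include 0.

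The comparison of day 14 with day 2 measured directly the return of the genes that fell at day 2. It also took in Ccnd2, whose change at day 2 did not pass, so its rise is not read as a return. All 10 genes were higher at day 14 than at day 2, where 27.4% of all genes tested were higher and 3.79% lower. The median log2 fold change was 3.30 for the S and G2/M genes, 1.32 for the others and 0.25 for all genes tested, a shift that was 0.00453 with median-of-ratios scaling, where 1648 of all genes were called higher and 1406 lower against 3474 and 481. Ccnb2 rose by the most, 17.2 times by the means, with 3.55 on the log2 scale (SE 0.24, limma, adjusted p = 1.57e-05). Ccna2 rose 14.5 times, Ccnb1 10.8 times and Cdk1 7.62 times, with log2 fold changes of 3.43, 3.16 and 2.77. The order of Ccnb2 and Ccna2 was not tested, and with a pseudocount of 5 their log2 fold changes were 2.43 and 2.46. Every day 14 library of these 4 genes lay above every day 2 library.

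The G1 genes rose by less. Ccne1 rose 5.50 times by the means, Ccnd1 3.40 times, Ccnd2 2.85 times, Ccne2 2.67 times, Ccnd3 1.65 times and Cdk2 1.42 times. The log2 fold changes were 1.86, 1.81, 1.52, 1.12, 0.71 and 0.48 in that order, and the days did not overlap for any of them. The calls for Cdk2 and Ccne2 were the least firm. Cdk2 (limma, adjusted p = 0.015) was lost with median-of-ratios scaling and quantile normalization, at log2 fold changes of 0.23 and 0.20 and limma adjusted p of 0.123 and 0.17, in the fit of day 2 and day 14 alone (0.055) and without day 14 replicate 3 (0.055). Ccne2 (limma, adjusted p = 0.0314) was lost in 8 of 20 alternative fits, among them those without replicate 1 or 3 of day 2 or replicate 2 or 3 of day 14, at limma adjusted p from 0.0701 to 0.0928.

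How much of the fall had been made up depends on the scale and on the normalization, and the shares below are from TPM without further scaling. In TPM, day 14 had regained 76.4% of the fall of Ccnd1, 73.5% of that of Ccnd3 and 52.9% of that of Cdk1. The share was 37.6% for Ccnb2, 37.04% for Cdk2, 34.3% for Ccne2, 32.8% for Ccnb1, 27.3% for Ccna2 and 26.5% for Ccne1. On the log2(TPM + 1) scale Ccnd1 and Ccnd3 had regained 85.7% and 78.8%, Cdk1 77.2%, Ccnb2 72.4%, Ccnb1 67.6%, Ccna2 66.03%, Ccne2 52.7%, Ccne1 52.4% and Cdk2 45.6%. Ccnd1 had the highest share on both scales, and Cdk1 stood above the A and B cyclins on both. Cdk2 had the smallest fall but one and, on the log scale, the lowest share regained.

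The order of the levels changed with time. At day 0 Ccnd1 was first, followed by Ccna2 and Ccnb1, whose libraries overlapped, then Cdk1, Ccnb2 and Ccnd2, each overlapping the next, then Ccnd3, Cdk2 and Ccne1, with Cdk2 and Ccne1 overlapping, and Ccne2 last. At day 2 the first places were those of Ccnd1 and Ccnd2, which overlapped, then Ccnd3, Cdk2 and Cdk1 without overlap, then Ccnb1, Ccna2, Ccne2, Ccnb2 and Ccne1, each overlapping the next. At day 14 Ccnd1, Ccnd2 and Ccnd3 led without overlap. Cdk1, Ccnb1, Ccna2 and Ccnb2 followed, each overlapping the next, and then came Cdk2 and, overlapping each other, Ccne1 and Ccne2.

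The balance between related genes was tested with their log2 ratio, log2((TPM + 1)/(TPM + 1)), in each library, by an exact permutation test over the 1680 ways to assign the 9 libraries to the 3 days. It was run for 8 pairs, with p-values adjusted over them, and the smallest p it can give is 0.00357. Its statistic is the spread of the means of all 3 days. A call therefore says that the days differ, not which of them do. The Cdk1 to Cdk2 ratio was 1.502 ± 0.12, -1.04 ± 0.36 and 1.26 ± 0.09 at days 0, 2 and 14 (SD, n = 3; exact permutation, adjusted p = 0.00952). Cdk1 made up 72.4% to 75.3% of the TPM of this kinase pair at day 0, 24.6% to 35.3% at day 2 and 69.6% to 71.7% at day 14. The share thus turned over at day 2 and stood near its starting range at day 14, just below it in each library.

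The make-up of the D cyclins at day 14 still differed from that at day 0. Ccnd1 was 77.4% ± 1.91, 48.4% ± 7.04 and 57.1% ± 4.31 of the summed TPM of the D cyclins at days 0, 2 and 14 (SD, n = 3). The share of Ccnd2 was 11.7% ± 1.13, 35.2% ± 0.671 and 34.2% ± 3.79 at these days, and every library of day 2 and day 14 lay above every day 0 library. The sum itself was 711 ± 57.2, 268 ± 71.8 and 789 ± 135 TPM. The log2 ratio of Ccnd1 to Ccnd2 was 2.72 ± 0.17, 0.44 ± 0.24 and 0.74 ± 0.27 (SD, n = 3; exact permutation, adjusted p = 0.0214). That of Ccnd1 to Ccnd3 was 2.82 ± 0.14, 1.60 ± 0.75 and 2.70 ± 0.24 (exact permutation, adjusted p = 0.0286). The Ccnd1 to Ccnd3 difference between day 2 and day 0 was -1.21 and came to -0.79 without day 2 replicate 1. The call of this ratio over the 3 days was lost without any 1 of the day 0 libraries. It was also lost without day 14 replicate 1 or 2, and adjusted p in these fits was from 0.0571 to 0.0776 by the exact permutation test.

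Ccne1 outweighed Ccne2 at day 0, with 68.6% to 75.2% of their summed TPM. At day 2 its share was 38.9% to 57.1%, at sums of both genes of 3.91 ± 1.46 TPM, and at day 14 it was 55.8% to 64.4%. The log2 ratio of Ccne1 to Ccne2 was 1.27 ± 0.21, -0.17 ± 0.35 and 0.58 ± 0.27 (SD, n = 3; exact permutation, adjusted p = 0.00952). Ccnb1 and Ccnb2 moved more nearly together, at log2 ratios of 0.57 ± 0.04, 0.81 ± 0.13 and 0.41 ± 0.25, which did not pass (exact permutation, adjusted p = 0.0679). The difference of 0.23 between day 2 and day 0 turned to -0.17 with a pseudocount of 5 in place of 1, and at 0.1 it was 0.51. At 0.1 the test of the ratio over the 3 days passed (exact permutation, adjusted p = 0.019). Ccnb2 at day 2 was near 1 to 3 TPM, where the pseudocount weighs most. Leaving out day 14 replicate 3 also made this ratio pass (exact permutation, adjusted p = 0.0143), as did removing the 20 most abundant rows (exact permutation, adjusted p = 0.0357).

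Ratios across phases of the cycle changed as well. The log2 ratio of Ccnd1 to Ccna2 was 2.12 ± 0.07, 5.205 ± 0.27 and 3.58 ± 0.33 at days 0, 2 and 14 (SD, n = 3; exact permutation, adjusted p = 0.00952), and the libraries of the 3 days did not overlap. That of Ccne1 to Ccna2 was -1.99 ± 0.07, -0.35 ± 0.28 and -1.92 ± 0.76 (exact permutation, adjusted p = 0.0408). That of Ccnb1 to Ccna2 was -0.01 ± 0.11, 0.51 ± 0.11 and 0.24 ± 0.18 (exact permutation, adjusted p = 0.0229). The last pair of calls was less firm. Ccne1 to Ccna2 lost its call without any 1 of the day 0 libraries, day 2 replicate 1 or day 2 replicate 2, and Ccnb1 to Ccna2 without any 1 of the day 0 libraries or day 2 replicate 3, at adjusted p from 0.0524 to 0.0667 by the exact permutation test, while a pseudocount of 5 gave Ccnb1 to Ccna2 an adjusted p of 0.098.

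**Figure D3:**
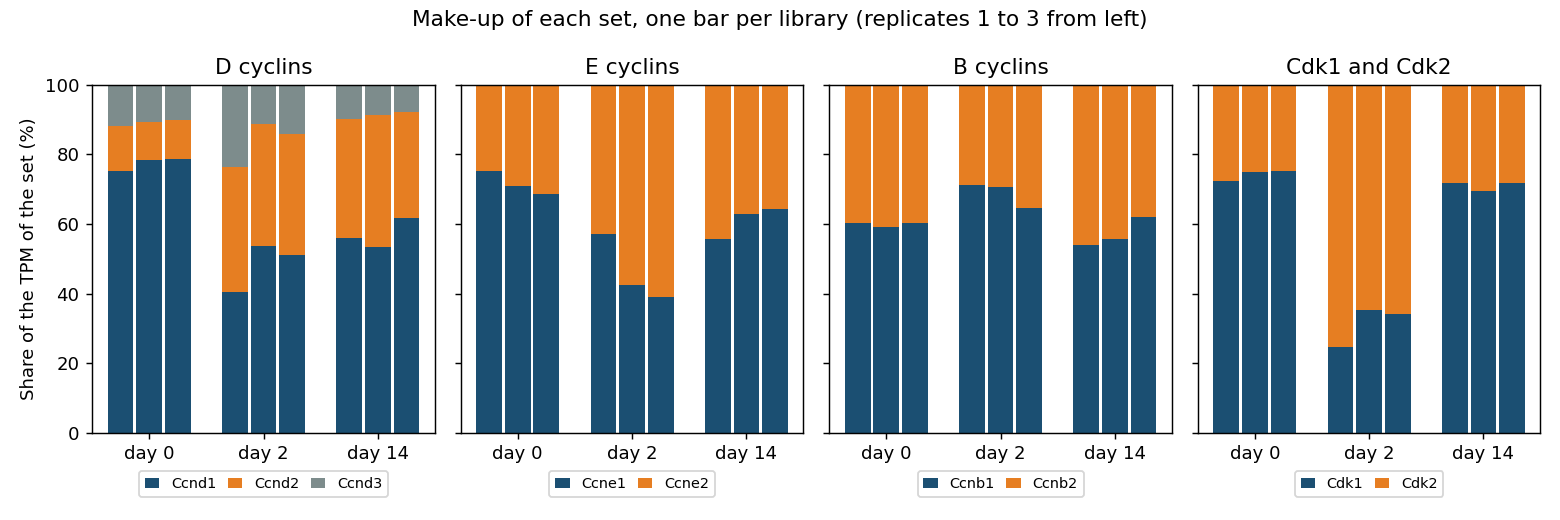
Share of each gene, in percent, in the summed TPM of the D cyclins, the E cyclins, the B cyclins and the pair Cdk1 and Cdk2, with 1 bar per library. The share of Ccnd2 is 11.7% ± 1.13 (SD, n = 3) at day 0 and stays above 30% at day 2 and day 14, while Cdk1 falls to at most 35.3% of its pair at day 2 and is at least 69.6% at day 14.

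The same library was often the highest or lowest of its day for many of these genes. At day 0 replicate 3 was the highest library for all 10 genes, and replicate 1 the lowest for 9 of them. At day 14 replicate 3 was the highest for 8 genes, and replicates 1 and 2 were each the lowest for 5. Here replicate 1 was lowest for Ccnd1, Ccnd2, Ccnd3, Ccne1 and Ccne2 and replicate 2 for Ccna2, Ccnb1, Ccnb2, Cdk1 and Cdk2. At day 2 replicate 1 was the lowest for 7 genes, among them Ccna2, Ccnb1, Ccnb2 and Cdk1.

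Genes of similar pattern were found by Pearson correlation of log2(TPM + 1) over the 9 libraries, which share their day, among 11646 other genes. For Ccna2 the nearest were Kif20a and Iqgap3, at r = 0.999 each, and Birc5. Kif20a codes for a motor protein of cytokinesis. For Ccnb1 they were Kif20a, Cenpa and Kif4, for Ccnb2 Kif4, Ube2c and Cenpa, and for Cdk1 Ube2c, Cenpn and Mboat1, all at r of at least 0.997. Cenpa is the histone variant of centromeres, and Ube2c the ubiquitin-conjugating enzyme of the anaphase-promoting complex. The G1 genes had other neighbours. They were Rhno1, Dusp14 and Relt for Ccnd1 (highest r 0.991), Ntn4, Tfdp2 and Rhoj for Ccnd2 (0.988) and Abracl, Slco3a1 and Hmgn5 for Ccnd3 (0.994). For Ccne1 they were Sfxn2, Morf4l2 and Slc35a4 (0.997), for Ccne2 Cmah, Zfp213 and Pxdn (0.991) and for Cdk2 Tpst2, Cstf1 and Tinf2 (0.993). With 3 days the differences between days set most of such a correlation.

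The other genes of the pathway were grouped by role, and their counts stand beside the shares of all genes tested. Those were 31.9% lower and 27.1% higher at day 2 against day 0, 18.8% lower and 36.2% higher at day 14 against day 0, and 3.79% lower and 27.4% higher at day 14 against day 2. Of 13 tested activators, cofactors and inhibitory kinases of CDKs, 12 were lower at day 2 than at day 0 and none higher, where 31.9% of all genes were lower, with a median of -2.09, and all 13 were higher at day 14 than at day 2, where 27.4% of all genes were. Plk1, a mitotic kinase that helps to activate CDK1, stood at 118 ± 2.02, 5.02 ± 0.366 and 40.8 ± 7.68 TPM at day 0, 2 and 14 (SD, n = 3). Against day 0, 9 were lower and 1 higher at day 14. Among 15 genes of cyclin degradation 8 were lower and 2 higher at day 2, where 31.9% of all genes were lower and 27.1% higher. Counting both directions, 66.7% of these were called, against 59.0% of all genes. Cdc20, which directs the anaphase-promoting complex to the A and B cyclins, stood at 226 ± 4.96, 7.04 ± 0.229 and 81.02 ± 21.7 TPM, and Btrc, an F-box protein, at 4.41 ± 0.293, 8.83 ± 0.783 and 6.93 ± 0.389 TPM. By day 14, 7 of them were lower and 4 higher than at day 0.

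Of 24 genes that control cyclin transcription 14 were lower and 1 higher at day 2, with a median of -0.94. Of all genes 31.9% were lower and 27.1% higher. Counting both directions, 62.5% of the list were called at day 2, against 59.0% of all genes. At day 14 against day 2, 15 were higher and none lower, where 27.4% of all genes were higher and 3.79% lower. Mybl2, the B-MYB factor of the S and G2/M promoters, stood at 51.9 ± 4.56, 1.58 ± 0.107 and 8.44 ± 1.70 TPM (SD, n = 3), and at day 14 was lower than at day 0 by a log2 fold change of -2.50 (limma, adjusted p = 1.01e-05). Rbl2, the pocket protein p130 of the DREAM complex, was the gene that was higher at day 2, at 9.02 ± 0.658, 24.4 ± 3.95 and 25.3 ± 5.24 TPM. The other pocket protein genes Rb1 and Rbl1, chosen after their values were seen, had day 2 log2 fold changes of 0.42 (limma, adjusted p = 0.0906) and -2.34 (limma, adjusted p = 2.48e-05). Relative to day 0, 9 of the 24 were lower and 5 higher at day 14, or 58.3% called against 55.1% of all genes.

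CDK inhibitor proteins moved both ways, with 5 of 8 higher and 3 lower at day 2, where 27.1% of all genes were higher and 31.9% lower. Cdkn1a, which codes for p21, stood at 4.75 ± 0.624, 60.3 ± 13.4 and 37.5 ± 6.56 TPM at day 0, 2 and 14 (SD, n = 3), and Cdkn3, a phosphatase that acts on CDKs, at 38.3 ± 5.35, 3.23 ± 1.27 and 26.1 ± 6.27 TPM. Day 14 had 4 higher and 1 lower than day 0, or 62.5% called against 55.1% of all genes. Among 10 other tested cyclins and CDKs of the cycle 3 were lower and 2 higher at day 2, a share called below the 59.0% of all genes. Ccnf, which codes for an F-box cyclin of G2, stood at 47.6 ± 3.23, 2.40 ± 0.598 and 13.4 ± 2.52 TPM, and Ccng2, a cyclin of resting cells, at 17.4 ± 1.18, 92.6 ± 9.04 and 58.8 ± 10.7 TPM. The partners of the D cyclins, chosen here after their values were seen, are the kinases Cdk4 and Cdk6. Cdk4 stood at 474 ± 13.9, 324 ± 48.8 and 317 ± 13.3 TPM and was lower at both times (limma, adjusted p = 0.00212 and 0.00215). Cdk6 stood at 16.4 ± 0.966, 13.3 ± 2.71 and 16.7 ± 0.481 TPM, and its changes from day 0 did not pass (limma, adjusted p = 0.0971 and 0.881).

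**Figure D4:**
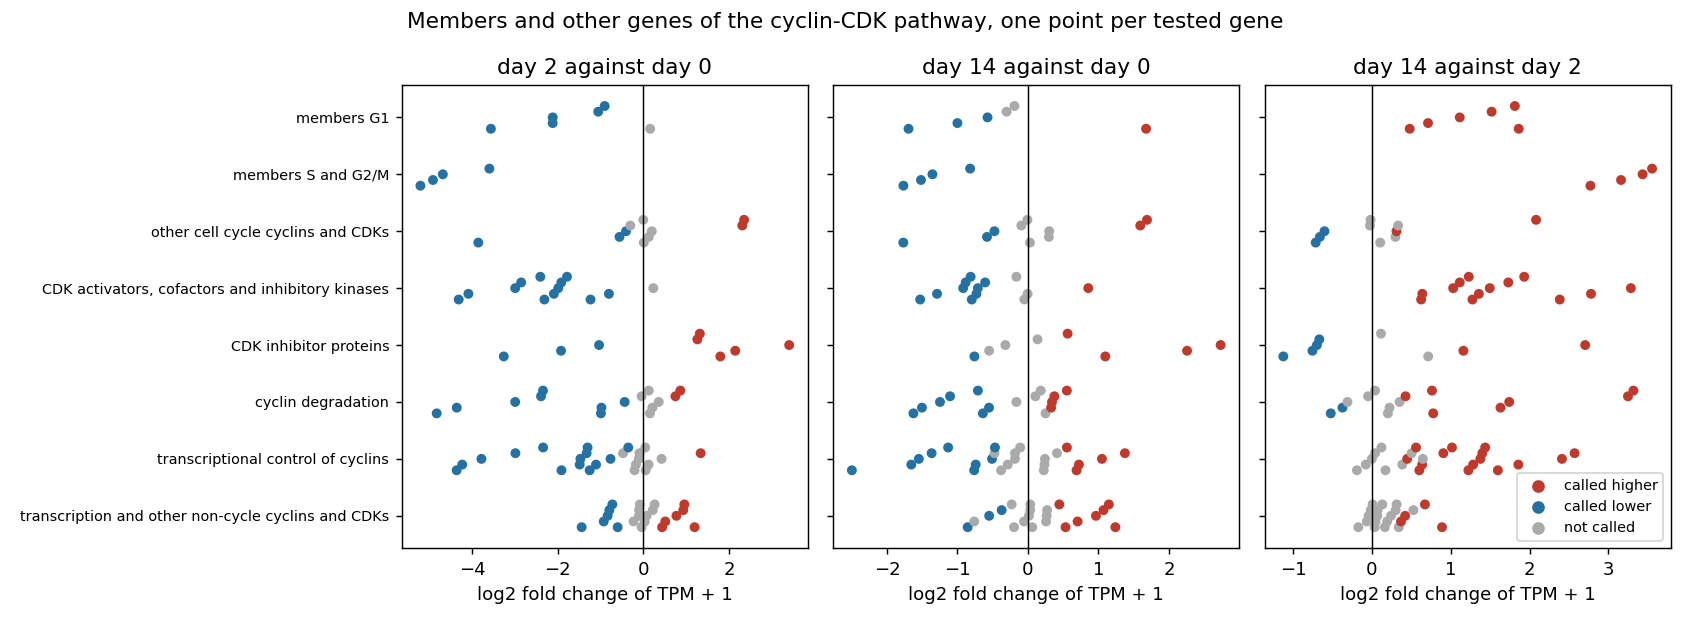
Log2 fold change of TPM + 1 of each tested gene, by list, in the 3 comparisons, with red for genes called higher, blue for genes called lower (limma, adjusted p under 0.05) and grey for the others. The 4 S and G2/M genes lie between -5.199 and -3.59 at day 2, a range that also holds genes of other lists, such as Cdc20 (-4.82) and Plk1 (-4.31). At day 2, 12 of 13 CDK activators, cofactors and inhibitory kinases are blue, where 31.9% of all genes tested were lower. All 13 are red at day 14 against day 2, where 27.4% of all genes were higher.

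In the annotation used here 6 of the 10 genes overlap a gene on the opposite strand, and the strand of the libraries is not given in the sources used here, so reads of the shared stretches cannot be told apart. Exosc9, which overlaps Ccna2, stood at 47.8, 22.3 and 27.99 TPM at day 0, 2 and 14 by the mean, and Ints8, which overlaps Ccne2, at 17.4, 15.0 and 15.7 TPM. At day 2 both lay above the gene they overlap. Ints8 also did so at day 0 and day 14, where Ccne2 had means of 12.7 and 5.80 TPM. Bysl, which overlaps Ccnd3, stood at 43.5, 8.56 and 14.5 TPM. Means of the genes overlapping Ccnd1, Ccnd2 and Cdk2, as far as they were matched, were all far below those of Ccnd1, Ccnd2 and Cdk2.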

How the data were processed

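RNA of 9 libraries was quantified with Salmon, per the submitters' processing notes, and the deposited values are TPM per gene symbol, which sum to 1000000 in each library. No source used here gives the Salmon version, index, build or annotation. Columns were matched to samples by day and number. Rows with at least 1 TPM in at least 3 libraries were tested, which kept 12693 of 24493, the 10 members included. Values were log2(TPM + 1), fitted with limma 3.58.1 in R 4.3.3 with a mean per day, moderated variances with a trend, two-sided p-values and Benjamini-Hochberg adjustment over all genes tested. Ratios of 8 pairs were tested by exact permutation. The fit was tested on simulated data. Promoter sequences are RefSeq's, and overlaps are from GENCODE. Figures were drawn with matplotlib 3.10.9 in Python 3.11.15.

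Members, lists and tests were chosen with earlier results of these data known, and the 6 pathway lists come from textbook knowledge. Genes named are the members, the strongest rise and fall at day 2 among each list's calls, all calls of a list with 4 or fewer, and the 3 genes most alike to each member, with microRNA, small nucleolar RNA and predicted genes left out. Rb1, Rbl1, Cdk4, Cdk6, Cdk8 and Ccni were named after their values were seen. Alternatives took 0.1 or 5 as the pseudocount, dropped the filter or asked for a mean of 5 TPM, and used 4 other scalings, no trend, the replicate number as a block, only the 2 days compared, and each library left out. Depth is unknown for TPM, so no counting intervals are given.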

Additional observations from a re-analysis of the deposited data

Results flagged for a closer look

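For all 10 genes the change from day 0 differed between day 2 and day 14, by the test of day 14 against day 2 (limma, adjusted p from 9.71e-06 to 0.0314). It is the same comparison as above, in which 27.4% of all genes tested were higher and 3.79% lower. The log2 fold changes of day 14 over day 2 were 3.55 for Ccnb2, 3.43 for Ccna2, 3.16 for Ccnb1 and 2.77 for Cdk1. They were 1.86 for Ccne1, 1.81 for Ccnd1, 1.52 for Ccnd2, 1.12 for Ccne2, 0.71 for Ccnd3 and 0.48 for Cdk2. Of these, Ccnd2 was the only gene of the 10 above its day 0 libraries at day 14.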

How the results depend on the processing

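Over 20 alternatives, 25 of the 30 log2 fold changes of the 10 genes kept their direction and their side of the threshold in every one. The exceptions were Ccnd2 at day 2, Ccnd3 and Ccne2 at day 14 against day 0, and Ccne2 and Cdk2 at day 14 against day 2, and the cause was not tested. The number of the 10 called stayed within 9 to 10 at day 2, 7 to 9 at day 14 against day 0 and 8 to 10 at day 14 against day 2. Ccnd2 at day 2 reversed without day 2 replicate 2, at -0.0246, and ranged to 0.34 with other libraries left out. At day 14 against day 2, Rbl2 and Cdk19, both uncalled, turned from 0.04 and 0.05 to -0.22 and -0.21 with median-of-ratios scaling, -0.25 and -0.25 with quantile normalization, -0.0789 and -0.0733 without the 20 most abundant rows and -0.0254 and -0.0199 without small RNA rows. Leaving out libraries gave -0.085 to 0.21 for Rbl2 and -0.0269 to 0.11 for Cdk19.

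For the ratios, day 2 minus day 0, Ccnb1 to Ccnb2 was 0.51 with a pseudocount of 0.1, -0.17 with 5 and 0.30 without the 20 most abundant rows, and Ccnb1 to Ccna2 was 0.27 with a pseudocount of 5. With each library left out in turn, Ccnd1 to Ccnd3 ranged from -1.52 to -0.79, Ccnb1 to Ccna2 from 0.46 to 0.58, Ccne1 to Ccna2 from 1.51 to 1.79 and Ccnb1 to Ccnb2 from 0.16 to 0.30. The calls over the 3 days of Cdk1 to Cdk2, Ccne1 to Ccne2, Ccnd1 to Ccnd2 and Ccnd1 to Ccna2 held in all 9 of these.

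Genes called in all were 3438 higher and 4046 lower at day 2, and 4563 and 3457 without the 20 most abundant rows. Against day 0 at day 14 they were 4601 and 2389, and 3497 and 3584 with median-of-ratios scaling and 2843 and 3363 with quantile normalization. At day 14 against day 2 they were 3474 and 481, and 1648 and 1406, 1470 and 1905, and 2590 and 818 under those 2 scalings and without the 20 rows. The replicate numbers did not show pairing, with correlations of deviations from -0.0709 to 0.318 and 4 of 9 libraries nearest to their own number. In the fit that took the replicate number as a block, 9, 8 and 10 of the genes were called in the 3 comparisons, as without it, and 7582, 7116 and 4031 of all genes.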

Other observations

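Cyclins and CDKs that work mainly in transcription or outside the cycle were fixed as a list of 22, of which 21 were tested. At day 2 against day 0, 6 were higher and 6 lower, with a median log2 fold change of -0.04, so that 57.1% were called where 59.0% of all genes were, and the range from -1.44 to 1.19 was narrower than that of the cycle genes. The lowest was Ccnyl1, a relative of cyclin Y, at 33.05 ± 2.79, 11.6 ± 2.10 and 22.4 ± 3.47 TPM at day 0, 2 and 14 (SD, n = 3). The highest was Cdk19, a kinase of the Mediator complex, at 10.4 ± 0.167, 25.1 ± 2.45 and 25.9 ± 2.08 TPM. Its close relative Cdk8, named after its values were seen, went the other way, with a log2 fold change of -0.93 at day 2 and -0.85 at day 14 (limma, adjusted p = 0.00114 and 0.00227). At day 14 against day 2, 4 of the 21 were higher and none lower, where 31.2% of all genes tested were called.

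Ccni, which codes for cyclin I and was also named after its values were seen, rose to 271 ± 31.3 TPM at day 2 from 53.9 ± 1.93 TPM at day 0 (SD, n = 3) and stood at 165 ± 1.96 TPM at day 14. At day 2 its mean was above that of every one of the 8 cyclins followed here, the highest of which was Ccnd1 at 133 ± 51.7 TPM. Ccna1 was at 0 TPM in all 9 libraries.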
